A study of Neurospora crassa with 33 samples.

Results

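The 6 genes described here encode the core of DNA double-strand break repair in the filamentous fungus *Neurospora crassa*: the end-joining genes *mus-51*, *mus-52* and *mus-53*, the recombination gene *mei-3*, and the repair kinase genes *mus-9* and *mus-21*. They were chosen by their locus identifiers from the 9729 genes listed in every library. All 6 were found. The libraries measured mRNA and ribosome-protected fragments (RPF), which are the pieces of mRNA covered by a translating ribosome. RPF were sequenced in 25 libraries (12 of the WT host, 13 of the Δ*cpc-3* host) and mRNA in 8, with a single mRNA library for each strain.

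The WT host was FGSC 4200, and the Δ*cpc-3* host lacked CPC-3, the kinase that phosphorylates the translation initiation factor eIF2α. Every strain of both hosts also carried a Flag-tagged reporter, placed at the *csr-1* locus, driven by the *ccg-1* promoter and linked to the *bar* selection marker, so no library came from a host without a transgene. The 4 reporters, named 1xWT-EDP, 3xWT-EDP, 1xOPT-EDP and 3xOPT-EDP, held 1 or 3 copies of 1 coding sequence with its own codons (WT) or with optimized codons (OPT). Each strain was a homokaryon purified through microconidia, and the mycelium was grown in constant light in minimal medium with glucose, with no DNA-damaging agent named in the labels or the study's methods. Each strain had 3 RPF libraries, except Δ*cpc-3* with 1xWT-EDP, which had 4. The study's methods call the RPF libraries of a strain biological replicates, without saying more about the cultures they came from.

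A double-strand break can be closed by end joining or by homologous recombination. In end joining the Ku heterodimer, made of MUS-51 (the Ku70 homolog) and MUS-52 (the Ku80 homolog), binds the broken ends, and MUS-53, the DNA ligase IV homolog, seals them. *mei-3* belongs to the homologous recombination pathway, which copies the lost sequence from an intact DNA molecule. MUS-9 and MUS-21 are the homologs of the checkpoint kinases ATR and ATM, which signal DNA damage. Loss of the end-joining genes makes nearly all transforming DNA integrate by homology in *N. crassa*, and strains without *mus-51* or *mus-52* are therefore widely used as recipients for gene replacement. Whether a host still carries these genes is thus a property of the strain, and it can be read from the libraries.

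The deleted gene was examined first, as a check of the labels. *cpc-3* (NCU01187) had RPF levels between 5.81 and 7.69 TPM (a level per unit of CDS length, scaled to the total of its library) in WT. In the 13 libraries of the deletion strain they lay between 0 and 0.117 TPM. Its mRNA lay between 8.20 and 12.6 TPM in WT and between 0.129 and 0.614 TPM in Δ*cpc-3*. The host groups did not overlap in either assay. Behind the Δ*cpc-3* mRNA values stood only 2.5 to 8.5 reads per library, against 92.5 to 129 in WT, where the reads behind a gene were taken from the midpoint of the deposited FPKM interval and need not be whole.

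The 3 end-joining genes were present in both hosts. *mus-51* (NCU08290) on chromosome IV (2520412 to 2522837 in assembly NC12, CDS of 1938 nt) had 28 to 38 mRNA reads per WT library and 35 to 61 per Δ*cpc-3* library. *mus-52* (NCU00077) on chromosome III (2531930 to 2535354, CDS of 2319 nt) had 10.5 to 32.5 and 32.5 to 48.5. *mus-53* (NCU06264), also on chromosome III (2116850 to 2120498, CDS of 3153 nt), had 7 to 22 and 28 to 52. A deleted gene would be read against *cpc-3*, and none of the end-joining genes had fewer mRNA reads in Δ*cpc-3* than *cpc-3* had there. In WT this mRNA comparison does not separate *mus-53*, whose lowest 2 libraries had 7 and 8.5 reads, and its presence there is read from the footprints. Ribosome footprints were also found on all 3 in every library, from 23 to 233.5 reads in WT and from 8 to 201 in Δ*cpc-3*, where *cpc-3* had 0 to 6. The same held for *mei-3* (NCU02741, chromosome I, 3390116 to 3391799, CDS of 1062 nt), *mus-9* (NCU11188, chromosome I, 7782698 to 7790990, CDS of 7479 nt) and *mus-21* (NCU00274, chromosome III, 3258938 to 3268638, CDS of 8820 nt), each with an FPKM above 0 in all 33 libraries.

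**Figure D1:**
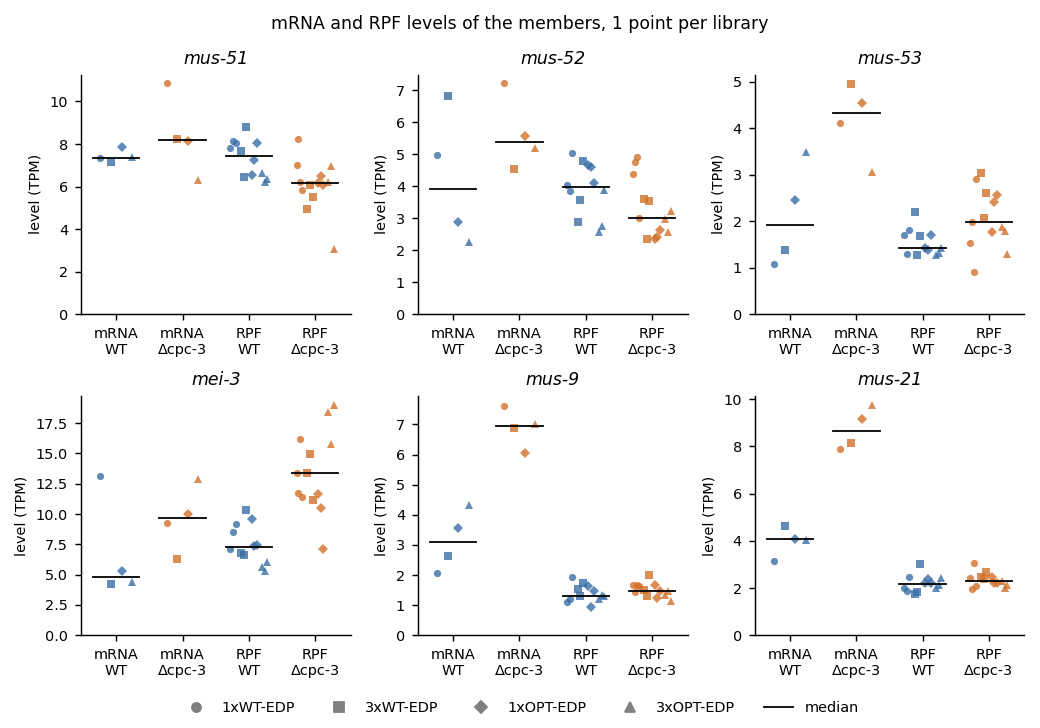
Level in TPM (vertical axis, linear, from 0) of each of the 6 genes in every library, by assay and host, with marker shapes for the reporters, blue for WT, orange for Δ*cpc-3* and a line at the median. All 6 genes are above 0 in every library, the mRNA of *mus-9* and *mus-21* is higher in all 4 Δ*cpc-3* strains than in any WT strain, and the RPF level of *mei-3* is higher in 12 of 13 Δ*cpc-3* libraries than in any WT library.

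All 6 lay in the lower part of the range of tested genes in WT, between the 3.92nd and 29.8th percentile in mRNA and between the 3.20th and 34.0th percentile in RPF. In WT the median RPF levels ran from 7.45 TPM for *mus-51* and 7.25 TPM for *mei-3*, through 3.96 TPM for *mus-52* and 2.17 TPM for *mus-21*, to 1.43 TPM for *mus-53* and 1.32 TPM for *mus-9*. The ranges of neighbours in this order overlapped, except those of *mei-3* and *mus-52*, where *mei-3* was the higher in 12 of 12 libraries. *mus-51* and *mei-3* could not be placed in order, since each was the higher in 6 of the 12 libraries, and without the short gene NCU16635 and the reporters in the TPM total *mei-3* came first. In Δ*cpc-3* the order of the medians was *mei-3* (13.4 TPM), *mus-51* (6.18 TPM), *mus-52* (2.99 TPM), *mus-21* (2.30 TPM), *mus-53* (1.99 TPM) and *mus-9* (1.48 TPM), and the ranges of all neighbours overlapped. Within each library, *mei-3* exceeded *mus-51* in 13 of 13 Δ*cpc-3* libraries, by a median factor of 2.02, against a median factor of 0.985 in WT. With the interval midpoint in place of the FPKM the lowest Δ*cpc-3* ratio was 0.928 and the median 1.56.

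Relative to the other genes, the kinase genes had a low ribosome density. Ribosome density was the RPF level of a strain, merged over its libraries, divided by its mRNA level, with 0.1 TPM added to both. Both levels are per unit of CDS length, so density is a relative measure of ribosomes per length of CDS on an mRNA. It does not give the total number of ribosomes on each mRNA molecule. A density near 1 means the same share of the TPM total in RPF as in mRNA. In WT the mean density was 0.485 ± 0.165 (SD, n = 4 strains) for *mus-9* and 0.551 ± 0.0939 for *mus-21*, at the 2.62nd and 4.32nd percentile of the 6686 genes tested, whose median was 1.01. The end-joining genes were close to that median, at 0.976 ± 0.0986 for *mus-51*, 1.03 ± 0.451 for *mus-52* and 0.926 ± 0.4995 for *mus-53*. *mei-3* stood at 1.28 ± 0.477, the 80.3rd percentile.

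The hosts were then compared with the 4 reporter strains of each host as replicates. The hosts also differed over the whole table: the median log2 change of all tested genes was 0.36 for mRNA, -0.18 for RPF and -0.51 for ribosome density, and each value below is to be read against it. The share of all tested genes whose hosts did not overlap was not counted. Where hosts are said below not to overlap, this only describes the values of that member. Of the 7911 genes tested for mRNA, 20.5% passed an adjusted p of 0.05 (limma, Benjamini-Hochberg over all genes tested) and 16.4% were higher in Δ*cpc-3*. The number called, 1621, fell to 966, 1018 and 1003 without the Δ*cpc-3* strain of 3xWT-EDP, 1xOPT-EDP and 3xOPT-EDP. Both kinase genes passed, and *mus-51*, *mus-52*, *mus-53* and *mei-3* did not. In bulk samples fewer cells with a transcript and less of it per cell cannot be told apart. Markers of conidia, the asexual spores, moved with the host: of 5 fixed markers, the mRNA of *con-8* and *eas* was higher in Δ*cpc-3*, and the mRNA summed over the 5 was 1190 to 1415 TPM in WT and 2181 to 3144 TPM in Δ*cpc-3*. The RPF of 4 of the 5 was higher (1596 to 2350 TPM summed in WT, 3448 to 7082 TPM in Δ*cpc-3*). *con-6*, a conidiation gene, had a median RPF of 0 TPM in WT and 10.01 TPM in Δ*cpc-3* (log2 change 4.63, limma adjusted p = 0.00107), and *con-10*, another, was not called in either assay. Both were at 0 in some mRNA libraries of both hosts, and *con-6* also in some RPF libraries. The hyphal pair *hex-1* and *so* was lower in RPF (log2 changes -0.85 and -0.44, limma adjusted p = 0.000105 and 0.00117). In mRNA *hex-1* was lower (-0.38, limma adjusted p = 0.0222), while *so* had a positive change that was not called (0.30, 0.148). The summed RPF of the pair was 2646 to 4035 TPM in WT and 1381 to 2233 TPM in Δ*cpc-3*. This sum was nearly all *hex-1* (median 2927 TPM in WT, against 16.2 TPM for *so*). The part of these cells in the results below was not tested.

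The mRNA of *mus-21* was 3.15, 4.64, 4.08 and 4.04 TPM in the WT strains with 1xWT-EDP, 3xWT-EDP, 1xOPT-EDP and 3xOPT-EDP, and 7.87, 8.12, 9.14 and 9.75 TPM in the Δ*cpc-3* strains in the same order. Every Δ*cpc-3* strain lay above every WT strain. The mean rose from 3.98 ± 0.618 to 8.72 ± 0.877 TPM (SD, n = 4), a log2 change of 1.12 (SE 0.22; limma adjusted p = 0.00806), and the call was kept when any 1 strain was left out, with adjusted p up to 0.0313. With median centring it was 0.73 (adjusted p = 0.0472), and with the interval midpoint and centring together it did not pass (0.74, 0.0645). *mus-9* gave 2.07, 2.64, 3.58 and 4.34 TPM in WT and 7.62, 6.90, 6.05 and 7.004 TPM in Δ*cpc-3*, again with no overlap. Its mean rose from 3.16 ± 1.00 to 6.89 ± 0.650 TPM, a log2 change of 1.15 (SE 0.29; limma adjusted p = 0.0211). That call was lost without the Δ*cpc-3* strain of 1xWT-EDP (1.10, adjusted p = 0.0568), of 3xWT-EDP (1.15, 0.0585) or of 3xOPT-EDP (1.14, 0.0582), when each library was centred on its median gene (0.76, 0.106), and with the reporter as a block (1.15, 0.0550).

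The footprints of the kinase genes showed no called rise in the main comparison. RPF levels of *mus-21* had a lowest, median and highest value of 1.76, 2.17 and 3.02 TPM over the 12 WT libraries and of 1.95, 2.30 and 3.08 TPM over the 13 Δ*cpc-3* libraries. For *mus-9* they were 0.953, 1.32 and 1.95 TPM in WT and 1.15, 1.48 and 1.99 TPM in Δ*cpc-3*. The host ranges overlapped almost completely for both genes, and only 1 of 13 Δ*cpc-3* libraries exceeded the highest WT library in each. Merged by strain, the log2 change was 0.14 (95% interval -0.13 to 0.40; limma adjusted p = 0.363) for *mus-21* and 0.13 (-0.20 to 0.46; 0.487) for *mus-9*. These 2 changes lay at the 75.4th and 74.8th percentile of all tested genes, whose median was -0.18. With median centring the *mus-21* value was 0.30 and just passed (limma adjusted p = 0.0483).

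Ribosome density of both kinase genes was lower in Δ*cpc-3*. For *mus-9* it was 0.669, 0.574, 0.388 and 0.309 in the WT strains with 1xWT-EDP, 3xWT-EDP, 1xOPT-EDP and 3xOPT-EDP, and 0.223, 0.232, 0.254 and 0.206 in Δ*cpc-3*. For *mus-21* it was 0.664, 0.436, 0.568 and 0.535 in WT and 0.306, 0.313, 0.262 and 0.229 in Δ*cpc-3*. Neither gene had a Δ*cpc-3* strain that reached the lowest WT strain. Calls of density needed an adjusted p under 0.05 and also host averages that differed by a ratio under 0.5 or above 2, which held for 14.7% of the 6686 genes tested, with 14.4% of all those tested called lower. *mus-9* was called (log2 change -1.02, SE 0.25, limma adjusted p = 0.0133, ratio 0.472). *mus-21* passed the p (-0.98, SE 0.18, 0.00422) but its ratio of 0.504 lay just outside the limit. These results were not firm at the limits: with the FPKM replaced by the midpoint of its interval *mus-9* missed the p (-0.97, adjusted p = 0.0512), and with median centring it came to -0.52 (0.218). The *mus-21* value likewise became -0.48 with median centring and missed the p (0.0875). The *mus-9* ratio no longer passed the limit without the WT strain of 1xWT-EDP (log2 change -0.85) or of 3xWT-EDP (-0.92). The same held without the replicate 3 libraries of WT (-0.95). *mus-21* passed both limits without the WT strain of 3xWT-EDP (-1.09) or of 3xOPT-EDP (-0.99), without the Δ*cpc-3* strain of 1xWT-EDP (-1.03) or of 3xWT-EDP (-1.05), and with equal-weight merging (-1.04).

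**Figure D2:**
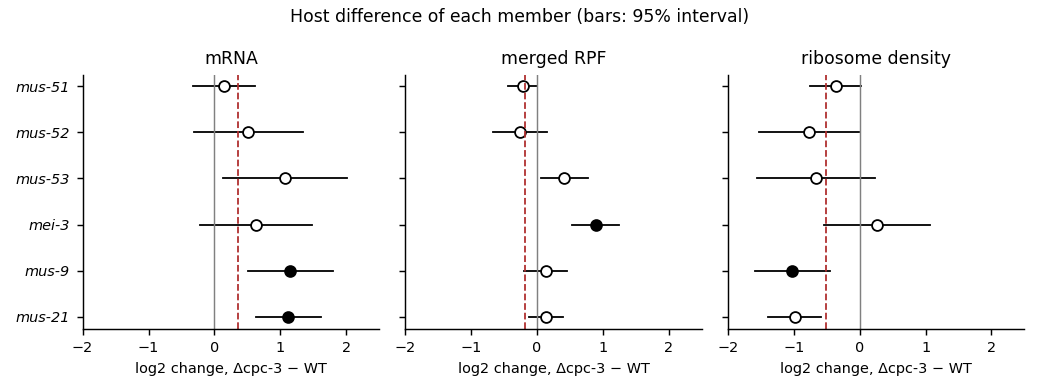
Log2 change from WT to Δ*cpc-3* (horizontal axis) of mRNA, merged RPF and ribosome density for each gene, with 95% intervals from limma over 4 strains per host, filled points for called changes, and a dashed line at the median of all tested genes. The mRNA of *mus-9* (1.15) and *mus-21* (1.12) and the RPF of *mei-3* (0.89) are called higher, and the density of *mus-9* (-1.02) is called lower.

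The kinase genes have the longest CDS of the 6, and their mRNA and density changes can be set beside those of genes of that length. Among the 30 tested genes with a CDS of at least 7479 nt, both kinase genes included, the median log2 mRNA change was 0.93 and 25 were called higher, while the median over the 7881 shorter genes was 0.35. For density the medians were -1.08 over 27 long genes, 19 of them called lower, and -0.51 over 6659 shorter genes. For RPF they were -0.21 and -0.18, and 9 of the 27 long genes were called lower and 0 higher by limma. The mRNA changes of *mus-9* and *mus-21* lay on either side of the upper quartile of this length class (1.14) and their density changes between its quartiles (-1.29 and -0.96), while their RPF changes (0.13 and 0.14) lay above its upper quartile (-0.08). In the RPF libraries the ratio of FPKM to interval midpoint in long CDS also differed between the hosts. Its medians over genes with CDS above 3000 nt were 0.905 to 1.01 in WT and 0.681 to 0.912 in Δ*cpc-3*. Within WT they were 1.00 to 1.01 in the replicate 3 libraries and 0.905 to 0.945 in the others. The ratio was 0.997 to 1.00 in all mRNA libraries. The part of this ratio in the density values is seen only in the midpoint values above, which kept their direction.

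The Ku genes showed no change that passed in mRNA, merged RPF or density. The mRNA of *mus-51* was 7.35, 7.14, 7.84 and 7.38 TPM in the WT strains, in the same order of reporters, and 10.9, 8.21, 8.13 and 6.33 TPM in Δ*cpc-3*. The Δ*cpc-3* strains thus lay on both sides of the WT strains. Its log2 mRNA change was 0.15 (95% interval -0.32 to 0.62; limma adjusted p = 0.638), which turned to -0.24 with median centring (0.445). Its RPF level was 6.20, 7.45 and 8.78 TPM (lowest, median, highest) in WT and 3.04, 6.18 and 8.24 TPM in Δ*cpc-3*, and 7 of 13 Δ*cpc-3* libraries lay below every WT library. The merged RPF change of -0.22 (-0.44 to 0.01; adjusted p = 0.0906) was close to the median of all genes and came to 0.03 with the interval midpoint (0.853). It passed without the Δ*cpc-3* strain of 1xWT-EDP (-0.27, adjusted p = 0.0397) and with equal-weight merging (-0.29, 0.0433). Its density change of -0.37 (adjusted p = 0.113) likewise turned positive with median centring (0.13, 0.662).

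*mus-52* mRNA was 4.96, 6.82, 2.87 and 2.26 TPM in the WT strains and 7.24, 4.54, 5.56 and 5.20 TPM in Δ*cpc-3*. The WT strains with OPT reporters had the lowest 2 values, on 17 and 10.5 reads. The log2 change was 0.52 (-0.31 to 1.34; limma adjusted p = 0.334). RPF levels of *mus-52* were 2.55, 3.96 and 5.04 TPM in WT and 2.35, 2.99 and 4.91 TPM in Δ*cpc-3*, and the merged change was -0.26 (-0.67 to 0.15; adjusted p = 0.266). Density spread more widely in WT (0.509 to 1.54) than in Δ*cpc-3* (0.445 to 0.679), and its change was -0.77 (-1.53 to -0.02; adjusted p = 0.0935). Without the WT strain of 3xWT-EDP that value became -1.07 and was called (adjusted p = 0.0146).

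The Ku subunits form a heterodimer, and their footprints can be compared within a library, where the total cancels. The RPF level of *mus-51* was 1.40 to 2.66 times that of *mus-52* in the 12 WT libraries (median 1.88) and 0.941 to 2.73 times in the 13 Δ*cpc-3* libraries (median 1.96). *mus-51* was the higher in 24 of the 25 libraries. In mRNA the ratio was 1.05 to 3.27 in WT and 1.22 to 1.81 in Δ*cpc-3*. The ratio of *mus-21* to *mus-9* footprints was likewise similar in range, 1.13 to 2.51 in WT and 1.28 to 1.85 in Δ*cpc-3*. These ratios were chosen after the levels were seen and were not tested.

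*mus-53*, the ligase gene, had the fewest mRNA reads of the 6 in WT (7, 8.5, 19.5 and 22). Its mRNA was 1.07, 1.37, 2.46 and 3.49 TPM in WT and 4.11, 4.95, 4.53 and 3.05 TPM in Δ*cpc-3*, so that 3 of 4 Δ*cpc-3* strains lay above all WT strains. The log2 change of 1.07 (SE 0.42; limma adjusted p = 0.0959) did not pass. RPF levels were 1.27, 1.43 and 2.20 TPM in WT and 0.917, 1.99 and 3.04 TPM in Δ*cpc-3*, with 5 of 13 Δ*cpc-3* libraries above all WT libraries and 1 below them. The merged RPF change was 0.41 (0.05 to 0.77) with an adjusted p of 0.0509, and it passed with the interval midpoint (0.51, adjusted p = 0.0277), with median centring (0.57, 0.0149) and without the Δ*cpc-3* strain of 1xWT-EDP (0.46, 0.0431) or of 3xOPT-EDP (0.48, 0.0410). Its density was 1.43, 1.26, 0.618 and 0.392 in WT and 0.467, 0.521, 0.486 and 0.591 in Δ*cpc-3*, and the change was -0.66 (-1.55 to 0.23; adjusted p = 0.206). Without the WT strain of 3xOPT-EDP, the 1 with the lowest density, it was -1.01 and was called (adjusted p = 0.0337).

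**Figure D3:**
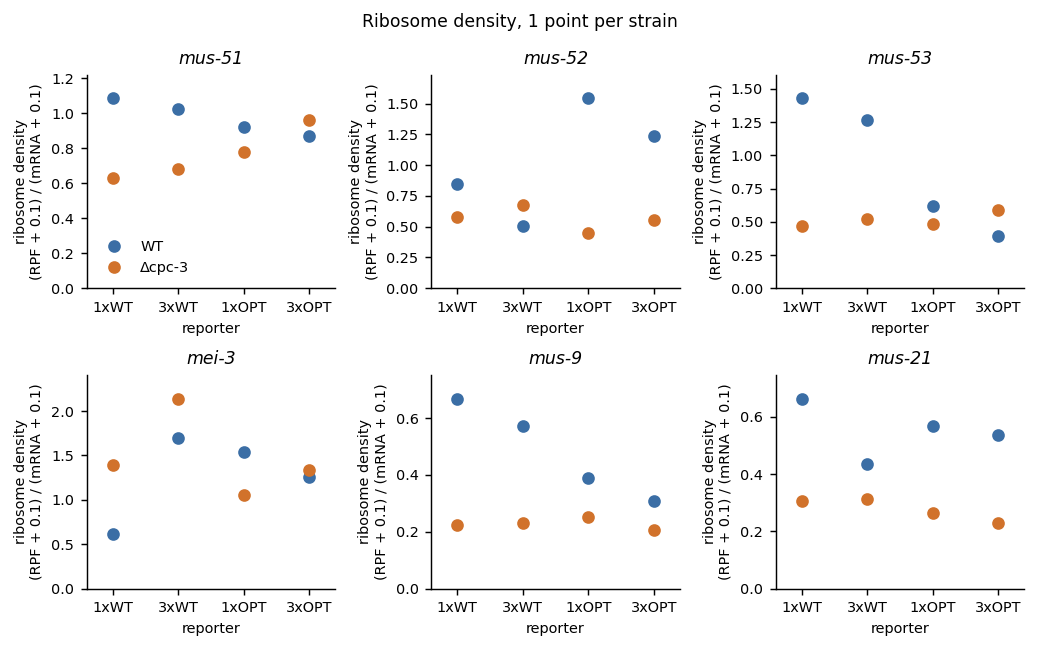
Ribosome density (vertical axis, no unit, linear from 0) of each gene in each of the 8 strains, by reporter, with blue points for WT and orange points for Δ*cpc-3*. For *mus-9* and *mus-21* the highest Δ*cpc-3* values (0.254 and 0.313) lie below the lowest WT values (0.309 and 0.436), while for the other genes the hosts cross.

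*mei-3* had the largest rise in merged RPF level of the 6 genes in Δ*cpc-3*. Of 6695 genes tested for merged RPF, 54.1% were called, 15.3% higher and 38.8% lower, and *mei-3* was the only 1 of the 6 members called. Its merged RPF level was 8.10, 7.23, 8.20 and 5.53 TPM in the WT strains and 12.9, 13.6, 10.5 and 17.4 TPM in Δ*cpc-3*, with every Δ*cpc-3* strain above every WT strain. The mean went from 7.26 to 13.6 TPM, a log2 change of 0.89 (SE 0.16; limma adjusted p = 0.000957), which was at the 96.3rd percentile of all genes. It stayed between 0.77 and 1.05 under all alternatives, with adjusted p between 0.000273 and 0.0129. Its mRNA was 13.2, 4.21, 5.30 and 4.39 TPM in WT and 9.29, 6.29, 10.02 and 12.9 TPM in Δ*cpc-3*, on 9.5 to 39 reads per library. The log2 mRNA change was 0.63 (-0.22 to 1.48; adjusted p = 0.258), but without the WT strain of 1xWT-EDP, whose mRNA was apart from the other WT strains, it was 1.00 and passed (0.0398). Density did not differ beyond the spread between strains (0.26, 95% interval -0.54 to 1.07, limma adjusted p = 0.576). This density change was at the 91.4th percentile of all tested genes, whose median was -0.51. It was 0.76 with median centring (limma adjusted p = 0.166), and its sign turned in 1 of the alternatives (-0.05).

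The size of the *mei-3* RPF difference was unequal between the 4 pairs of strains. Each combination of host and reporter was a single strain, so a difference between reporters and one between individual strains cannot be told apart. With the libraries as replicates, the RPF of *mei-3* was 7.11, 8.49 and 9.15 TPM in WT with 1xWT-EDP and 13.4, 11.8, 16.2 and 11.4 TPM in Δ*cpc-3* with the same reporter. With 3xWT-EDP it was 6.83, 6.60 and 10.4 TPM in WT and 13.4, 15.0 and 11.2 TPM in Δ*cpc-3*. The host groups did not overlap with either WT-EDP reporter. With 3xOPT-EDP the gap was wider, with 5.66, 5.27 and 6.05 TPM in WT and 18.4, 15.7 and 19.03 TPM in Δ*cpc-3*. With 1xOPT-EDP the groups overlapped, with 9.59, 7.40 and 7.48 TPM in WT and 11.6, 10.5 and 7.15 TPM in Δ*cpc-3*.

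The log2 host differences of *mei-3* were 0.66 (SE 0.18; adjusted p = 0.00604) with 1xWT-EDP, 0.74 (SE 0.19; 0.00327) with 3xWT-EDP, 0.24 (SE 0.19; 0.327) with 1xOPT-EDP and 1.63 (SE 0.19; 7.49e-07) with 3xOPT-EDP, all from limma over the 25 libraries. Higher calls were made for 12.9%, 9.79%, 7.35% and 10.5% of the 6698 genes in these 4 comparisons. A test of whether the 4 differences were equal, which 5.03% of the genes passed, gave an adjusted p of 0.0156 for *mei-3*, and its largest and smallest differences were 1.39 apart on the log2 scale. The number of genes that passed, 337, was 1557 without replicate 4 of Δ*cpc-3* with 1xWT-EDP, and 179 or 162 without replicate 1 or 2 of WT with that reporter. *mei-3* passed without replicate 4 (adjusted p = 0.00440) and with any other single library left out (limma adjusted p up to 0.0454). With median centring the 1xOPT-EDP difference also passed (0.58, adjusted p = 0.00619), and the test of equal differences was still passed (0.00493). Replicate 4 of Δ*cpc-3* with 1xWT-EDP stood apart from replicates 1 to 3 of that strain, with 5.745 to 7.85 times the variance that read sampling gives, against 1.98 to 3.38 times in the other replicate pairs. Those 3 replicates were also the only Δ*cpc-3* RPF libraries whose ratio of FPKM to midpoint was near that of WT, and the *mei-3* difference with 1xWT-EDP over them was 0.73 (adjusted p = 0.00496).

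Of the other members, *mus-52* alone was called in a comparison within a reporter. With 1xOPT-EDP its RPF lay between 4.09 and 4.65 TPM in WT and between 2.36 and 2.63 TPM in Δ*cpc-3* (3 libraries each), with no overlap. The log2 difference was -0.82 (SE 0.22; limma adjusted p = 0.00425), in a comparison in which 41.7% of the genes were called lower and the median gene was at -0.37. With the interval midpoint it was -0.45 and did not pass (adjusted p = 0.110). The differences with the other reporters were -0.03, -0.23 and -0.05, but the test of equal differences was not passed by *mus-52* (adjusted p = 0.278), so unequal differences were not shown for it. *mus-51* was called lower within 3xWT-EDP or 3xOPT-EDP only when 1 library of Δ*cpc-3* with 3xOPT-EDP was left out (-0.46 and -0.55), and *mus-53* was called higher within 1xOPT-EDP only with the interval midpoint (0.84) or median centring (0.88), as was *mus-21* within 3xWT-EDP with median centring (0.44). The test of equal differences gave adjusted p of 0.808 to 0.987 for *mus-51*, *mus-53*, *mus-9* and *mus-21*.

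**Figure D4:**
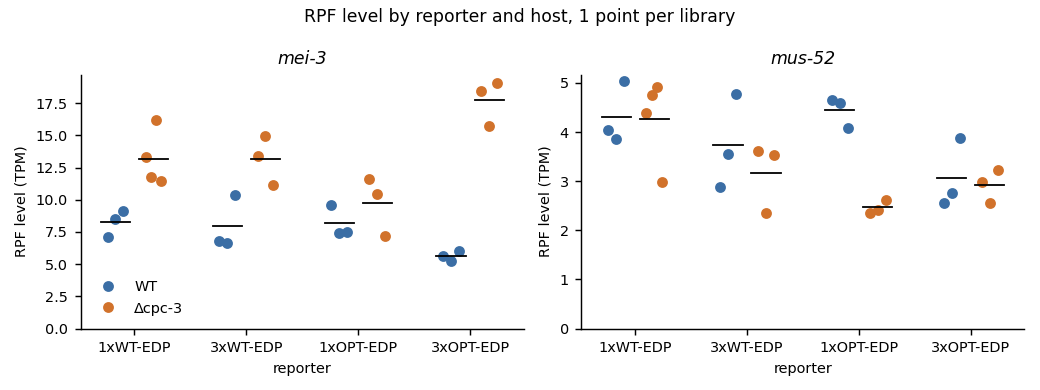
RPF level in TPM (vertical axis, linear from 0) of *mei-3* and *mus-52* in every RPF library by reporter, with blue points for WT, orange points for Δ*cpc-3* and lines at the means. For *mei-3* the hosts are widest apart with 3xOPT-EDP (5.27 to 6.05 against 15.7 to 19.03 TPM), and for *mus-52* they are apart only with 1xOPT-EDP.

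The reporters themselves were compared over both hosts. In RPF the 25 libraries were the replicates in this comparison. Its intervals and adjusted p in RPF thus rest on the spread between libraries of a strain, and not on that between strains. No member was called for OPT against WT codons in RPF, where 1.19% of the genes were, or for 3 against 1 copies, where 0.284% were. These shares depended on single libraries: without replicate 4 of Δ*cpc-3* with 1xWT-EDP the genes called went from 80 to 1036 by codons and from 19 to 659 by copies, still with no member among them (*mus-52* by codons: -0.30, limma adjusted p = 0.0502). Without 1 of several other libraries they fell to as few as 45 and 10. In mRNA 0 of 7911 genes passed either comparison with limma (0.00%), while 562 and 365 genes had an unadjusted p under 0.05, none of them a member. The widest member values in RPF were those of *mus-52*, with -0.26 (-0.49 to -0.03; adjusted p = 0.233) for codons and -0.24 (-0.47 to -0.01; 0.378) for copies. In mRNA they were -0.63 (-1.42 to 0.17) for *mus-52* by codons and -0.52 (-1.42 to 0.38) for *mei-3* by copies. The intervals of the mRNA values are wide, and for both genes they reach beyond a log2 change of -1.

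Other DNA repair genes were examined as a list of 24 symbols, of which 21 genes were matched in the NC12 table. In mRNA 1 of the 21 was called higher, *prd-4*, the checkpoint kinase 2 homolog (log2 change 0.63, limma adjusted p = 0.0379), none was called lower, and the list's median was 0.56, where 16.4% of all genes were higher and their median was 0.36. In merged RPF 17 were tested, 4 were higher and 5 lower, where 15.3% and 38.8% of all genes were, and the median was 0.02. The largest rise was that of *mus-8* (1.08), the homolog of the ubiquitin-conjugating enzyme RAD6, and the largest fall that of *mus-38* (-0.70), the homolog of the excision repair nuclease subunit RAD1. The recombination genes *uvs-6* (RAD50) and *mus-23* (MRE11) fell by 0.48 and 0.36 in RPF, and *mus-11* (RAD52) and *mus-25* (RAD54) were not called. In density 4 of 17 were lower, *mus-25*, *mus-23*, *mus-38* and *mus-41*, and none was higher, where 14.4% of all genes were lower. The list's median was -0.40.

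Across the 25 RPF libraries the members did not vary as a set. The highest correlation between any 2 members was that of *mus-9* with *mus-21* (Pearson r = 0.45). By likeness to *mus-9*, *mus-21* ranked 112th of 6697 genes, and the first of these genes had an r of 0.71. *mus-51* and *mus-52* had an r of 0.35, at rank 3338. The genes most like each member, by r of log2 RPF over the 25 libraries, were NCU07247 (0.85) and NCU00079 (0.85) for *mus-51*, *nup-9* (0.87) and NCU02695 (0.83) for *mus-52*, and NCU07170 (0.83) and NCU10009 (0.74) for *mus-53*. They were NCU02157 (0.85) and *pdx-4* (0.85) for *mei-3*, NCU02089 (0.71) and NCU06260 (0.66) for *mus-9*, and NCU08926 (0.77) and NCU03130 (0.72) for *mus-21*. The libraries share hosts, reporters and totals, so these values describe the libraries and carry no p.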

How the data were processed

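RPF and mRNA were measured by sequencing of mycelia, and mapping by the authors was to CDS regions. The deposited values are FPKM per gene with interval bounds, and the deposited coverage column is a read depth per base, used only as the per-library weight for merging. The submitters' processing notes name Bowtie2 and Cufflinks, while versions, build and annotation are not given in the sources used here. The interval bounds were whole numbers of reads in 100% of bounds up to 200 reads (tolerance 0.05 reads), which gave 1270403 to 10035080 reads per RPF library and 938863 to 1747779 per mRNA library. This depth limits the members most in mRNA, where *mus-53* had as few as 7 reads. PCR duplicates are included in these reads.

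FPKM were rescaled to TPM over all entries of a library. NCU16635 took 10.0% to 25.4% of the TPM in WT RPF libraries and 23.4% to 38.3% in those of Δ*cpc-3*. This lowers all other levels, unequally between hosts and also within WT. There the replicate 3 libraries of all reporters stood apart, at 10.0% to 12.1%, against 22.4% to 25.4% in the others. The reason was not tested. With the interval midpoint NCU16635 took 0.296% to 1.28%, and the members' levels nearly doubled (*mus-51* in WT RPF: median 13.6 in place of 7.45 TPM). Genes whose TPM averaged at least 1 were tested on log2(TPM + 0.1) with limma 3.58.1 in R 4.3.3 (trended eBayes) and Benjamini-Hochberg adjustment, so fold changes of low genes are understated. The steps were tested on simulated data, with 44% of genes changed by a log2 of 1 and 66% of those changed by 2 recovered in the mRNA comparison of 7911 genes. RPF replicates were merged with weights proportional to reads. Libraries were grouped by host and reporter from their labels. Symbols and positions came from the RefSeq table of assembly NC12, which has no sequences. The genes named are the 6 members, *cpc-3*, NCU16635, the repair list, the fixed markers and, per member, the 2 tested genes with the highest r. The members, lists and markers were chosen with earlier results of these data known. Alternatives covered the pseudocount, the minimum, the interval midpoint, centring, merging, the test, pairing and left-out libraries. Python 3.11.15 was used for tables.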

Additional observations from a re-analysis of the deposited data

Results flagged for a closer look

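The mRNA level of *mei-3* in the WT strains had 1 strain apart from the others: the strain with 1xWT-EDP was at 13.2 TPM, against 4.21 to 5.30 TPM in the other 3, and this gap was 0.878 of the whole range. It rested on 28.5 reads, against 9.5 to 13.5 in the others. The RPF level of *mei-3* in the same strain, 7.11 to 9.15 TPM, was within the range of the other WT strains.

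The RPF level of *mus-9* in the 4 libraries of Δ*cpc-3* with 1xWT-EDP also had 1 library apart, with a gap of 0.904 of the range, although the range itself was narrow (1.43 to 1.67 TPM). In all, 42 groups of 4 values were examined in this way and 2 stood out, and chance alone flags about 1 in 20 groups.

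The host difference of *mei-3* in RPF was unequal between the strain pairs of the 4 reporters (limma adjusted p = 0.0156). All 4 differences were positive, from 0.24 with 1xOPT-EDP to 1.63 with 3xOPT-EDP.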

How the results depend on the processing

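No result of the 6 genes changed from a called rise to a fall, or the reverse, under any alternative. Members called in mRNA numbered 2, and were 1 with median centring, 1 with the reporter as replicate block (*mus-9* lost), 0 with the interval midpoint and centring together, an alternative chosen after seeing the data, and 1 to 3 with a strain left out. In merged RPF 1 was called, and 2 were with a pseudocount of 1, the interval midpoint, equal-weight merging, the midpoint with centring or without the WT replicate 3 libraries (also added after seeing the data), 3 with centring, and 1 to 3 with a strain left out. In density 1 was called, and 0 were with a pseudocount of 1, the midpoint, centring, both together, or without the WT replicate 3 libraries, 2 with equal-weight merging, and 0 to 3 with a strain left out. Within 3xWT-EDP 1 became 2 with centring and 1 to 2 with a library left out, within 1xOPT-EDP 1 became 3 with centring, and within 3xOPT-EDP it was 1 to 2 with a library left out. Genes called for density numbered 984, and 541 with the midpoint, 350 with centring and 272 with both. Within 1xOPT-EDP 3288 genes became 2161 with the midpoint. Why these counts moved was not tested.

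The replicate numbers were not taken to pair the libraries: deviations of same-numbered libraries of 1 reporter in the hosts correlated at -0.0895 to 0.0620, and 6 of 24 libraries were closest to their own number. Across reporters, same-numbered WT libraries correlated at 0.0147 to 0.298 (mean 0.138, against -0.0674 for different numbers) and Δ*cpc-3* libraries at -0.113 to 0.149. With the number as replicate block, 2 members instead of 1 passed the test of equal host differences (*mus-52* added) and 1 instead of 0 the codon test (*mus-52*), while the genes called went from 337 to 1702, from 80 to 1158 and, for copies, from 19 to 778. Replicate 4 of Δ*cpc-3* with 1xWT-EDP is the only library with its number, so that fit in effect drops it, and leaving out this library alone gave 1557, 1036 and 659 genes. For the codon and copy tests the midpoint gave 155 and 91 genes and centring 144 and 81. With reporters paired across hosts, deviations correlated at -0.0518 to 0.0670 in mRNA.

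The levels kept their spread: the highest member median was 5.65 times the lowest in WT RPF, and 5.24 times with the midpoint.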
